A study of Mus musculus with 41 samples.

Results

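The genes described here are those whose response to prenatal metformin in the neonatal male liver differed with the diet of the dam. They were found with 18 of the 41 arrays of the series, all from livers of male mice at postnatal day 4. Offspring of dams on a high fat diet (HFD), fed before mating and through gestation, numbered 6 with metformin and 6 controls. Offspring of dams on the regular diet (RD) numbered 3 with metformin and 3 controls, and livers of 6 RD females (3 of each kind) served as animals outside the contrast. Metformin was given to the HFD dams by mouth during gestation and the HFD controls had vehicle, and the HFD mice were C57/BL6NHsd, while the strain, the dose, the timing and the control treatment of the RD dams are not given in the sources used here. The labels put the RD livers and the HFD livers in different studies, so diet and study cannot be told apart in any difference between the diets. Each array holds whole liver of 1 pup.

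The interaction was the metformin effect in HFD livers (metformin minus control) minus the metformin effect in RD livers. A value above 0 means that metformin livers stood higher against their controls on HFD than on RD, and a value below 0 the reverse. All differences are on the log2 scale of normalized bead intensity, where 1 unit is a doubling. A gene was represented by its brightest probe among those detected in at least 1 group, and a difference was called at an adjusted p under 0.05 from limma, with Benjamini-Hochberg adjustment over all 17106 probes kept. Animals carry the codes 1R and 1T (HFD control), 10K and 3R (HFD metformin), B and C (RD control) and E and F (RD metformin). What the codes stand for is not stated, so litters may be shared within a code and the p-values measure the spread between these pups.

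Metformin is taken up by hepatocytes through organic cation transporters and acts in mitochondria, where it is known for inhibiting complex I of the respiratory chain and for activating the kinase AMPK. The neonatal liver is also a blood-forming organ. It still holds erythroblasts, megakaryocytes and granulocyte precursors, which leave as hepatocyte metabolism matures. In RNA of whole liver, fewer cells of a type and less RNA per cell cannot be told apart.

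The 95th percentile of raw intensity was 908 to 1125 in RD controls, 577 to 1099 in RD metformin livers, 396 to 1305 in HFD controls and 208 to 1131 in HFD metformin livers. RD arrays detected (p under 0.05) between 38.3% and 41.6% of all probes, and HFD arrays between 31.0% and 39.9%. The first principal component held 49.7% of the variance and separated RD livers (-57.57 to -45.37) from HFD livers (5.40 to 36.94). The HFD control 1T-1 stood apart on the next component (-52.01), and the HFD metformin liver 3R-6 had the dimmest array. The summed linear intensity of 16 hepatocyte markers was 268658 to 321402 across all 4 groups.

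The metformin effects on the 2 diets had opposite signs in most genes with a called interaction. The interaction was called for 42 probes (0.246% of those kept), 34 higher and 8 lower, of which 14 have no single gene symbol in the annotation and are not named. By the brightest probe it was called for 18 of 9844 genes (0.183%), 14 higher (0.142%) and 4 lower (0.0406%). The HFD and RD effects had opposite signs in 16 of the 18 genes. In 12 of them metformin livers were higher than controls on HFD and lower on RD, and in 4 they were lower on HFD and higher on RD. Of these 16, *Prg3* and *Sst* were detected on no HFD array, so their HFD sign was not measured. The other 14 were 11 higher on HFD and 3 lower. Among the 11, *Rep15* was undetected on most RD arrays, so its RD sign was not well measured. Among the 3, *B3galt6* had an HFD effect of only -0.03, so its response came from RD alone. *Cptp*, detected on 1 of 12 HFD arrays, and *Rbm45*, with an HFD effect of -0.03, had no measured HFD difference to set against their RD effect. With no background correction the count was 15, and with each array centred on its median 14, or 16 relative to the median of all genes. Over all 9844 genes the signs were opposite in 60.7%, and the interaction was above 0 in 50.5%. A large interaction itself favours opposite signs, so the sign split of the 18 called genes is only a description. Both effects passed an unadjusted p under 0.05 from limma in 10 of the 16 genes with opposite signs. Of the 18, only the RD effect passed in 5 and only the HFD effect in 2.

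The calls differed in how far they rested on single pups. *Cptp* was called without any 1 of the 18 pups, *Vezt* in 16 of these 18 models, *Neat1*, *Arhgef2*, *Zgrf1* and *Cars* in 15 and *Rbm45* and *Sst* in 13. The other 10 genes were called in 3 to 7 of them. With animal code as a random block, 30 probes and 11 of the 18 genes were called. The number of called probes was 3 without the RD metformin pup 1E and 4 without the RD control 3B, against 136 without the RD metformin pup 6F, 67 without 3E and 11 and 16 without the other RD controls (5C and 1B). Leaving out 1 HFD pup gave 18 to 61 probes. Without the 4 metformin livers of code 3R, which leaves 2, limma called 0 probes, with 1578 at an unadjusted p under 0.05.

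No gene had an effect called on each diet separately. The HFD effect was called for 14 of all genes (0.142%), of which 6 were among the 18. The RD effect was called for 7 (0.0711%), of which 5 were among the 18. At an unadjusted p under 0.05 the HFD effect passed for 1585 genes (16.1%; 7.44% higher and 8.67% lower) and the RD effect for 396 (4.02%; 1.22% higher and 2.8% lower). Both passed for 92 genes, and 87 of these (0.884% of all genes) had opposite signs against 5 (0.0508%) with the same sign. Of the 87, 66 were higher on HFD and lower on RD, and 21 were lower on HFD and higher on RD. The groups did not overlap on either diet, in opposite directions, for 22 genes (0.223%), where 1.47% of all genes did not overlap on HFD (0.843% higher and 0.63% lower with metformin) and 10.8% on RD (4.55% and 6.22%). No gene did so in the same direction.

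The effects on the 2 diets, which share no array, correlated over the 9844 genes with a Pearson r of -0.28 and a Spearman rho of -0.30. Genes are not independent replicates, and the values describe these arrays alone. With each pup left out in turn the r ran from -0.32 to -0.19, and with each array centred on its median it was -0.15.

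**Figure D1:**
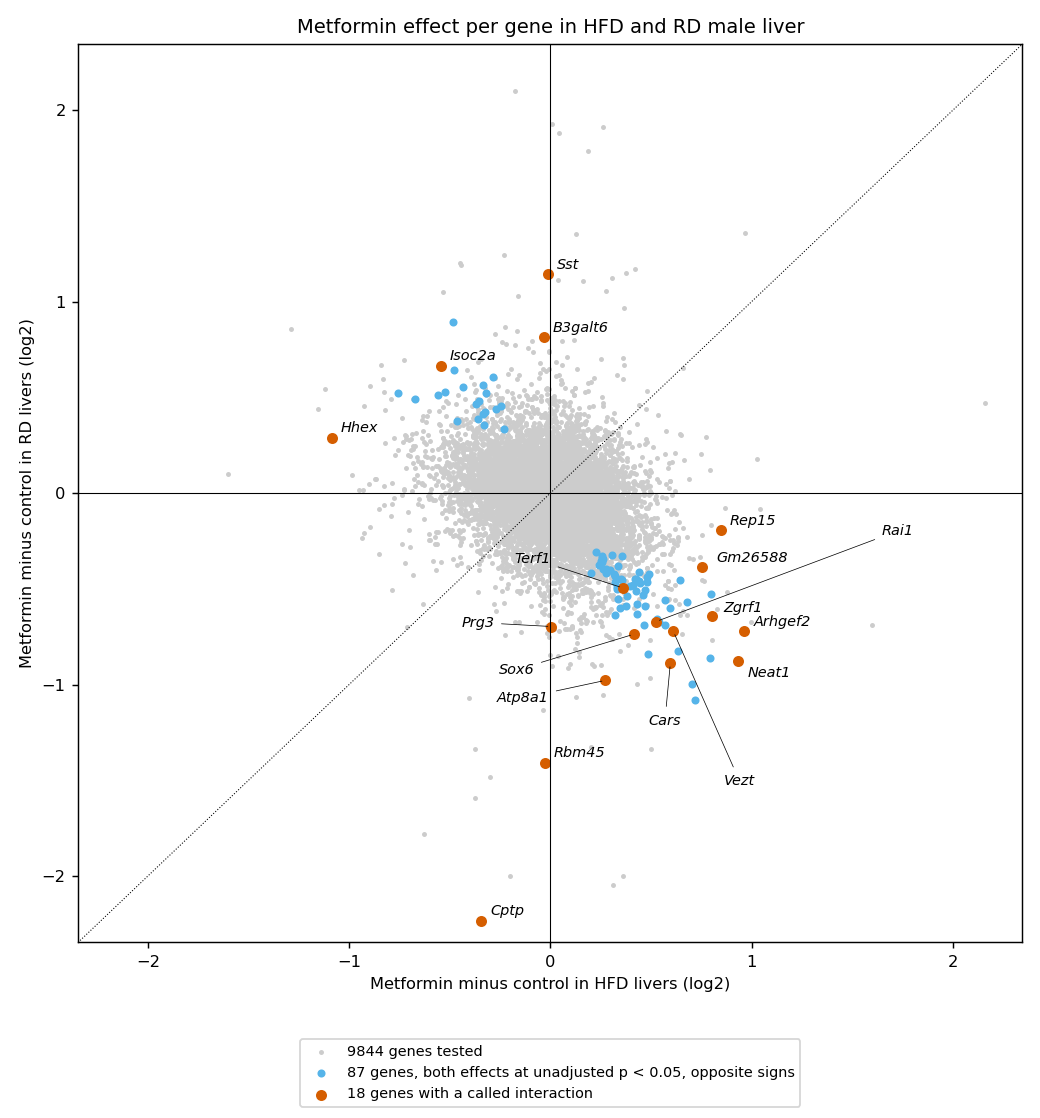
Metformin minus control per gene (log2) in HFD male livers (x axis, 6 and 6 animals) and RD male livers (y axis, 3 and 3). Grey points are the 9844 genes tested, blue points the 87 genes with opposite signs and both effects at an unadjusted p under 0.05, and orange points the 18 genes with a called interaction. The dotted line marks equal effects. Of the orange points, 12 lie to the lower right and 4 to the upper left, among them *Prg3* and *Sst* with HFD effects of 0.01 and -0.01 at background.

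Among the genes higher with metformin on HFD and lower on RD, *Neat1* had the largest called interaction. *Neat1* is a nuclear long non-coding RNA that builds paraspeckles. On RD its log2 level was 8.32, 8.43 and 8.97 in the controls and 7.32, 7.74 and 8.03 in the metformin livers. On HFD the controls ranged from 7.75 to 8.58 around a median of 8.37, and the metformin livers from 8.88 to 9.86 around 9.14. The groups did not overlap on either diet, and they lay in opposite order. The HFD effect was 0.93 ± 0.18 (SE) and the RD effect -0.88 ± 0.26 (SE), which gave an interaction of 1.81 ± 0.32 (SE, adjusted p = 0.0239 from limma).

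*Arhgef2* encodes a microtubule-bound exchange factor that activates RhoA. Its log2 level was 6.11, 6.47 and 5.70 in RD controls and 5.61, 5.00 and 5.50 in RD metformin livers. HFD controls lay between 5.54 and 6.15 and HFD metformin livers between 6.40 and 7.33. Again neither pair of groups overlapped. The effects were 0.96 on HFD and -0.72 on RD, with an interaction of 1.69 ± 0.30 (SE, adjusted p = 0.0239 from limma). A dimmer probe of *Arhgef2* had an interaction of -0.27 and was not called, so the call rests on 1 of the gene's probes.

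*Zgrf1*, whose human counterpart is a DNA helicase of recombination repair, was measured at 6.65, 6.90 and 6.49 in RD controls and at 5.69, 6.03 and 6.40 in RD metformin livers. HFD controls reached 6.80 and the lowest HFD metformin liver was at 6.86. The effects were 0.80 on HFD and -0.64 on RD (interaction 1.45 ± 0.25 SE, adjusted p = 0.0239 from limma). *Vezt*, for the adherens junction protein vezatin, lay at 5.29, 5.82 and 5.18 in RD controls and at 4.56, 4.67 and 4.90 in RD metformin livers, where only 1 of 3 arrays detected it. On HFD it was 5.53 to 6.13 in the controls and 6.26 to 6.62 with metformin. Its interaction was 1.33 ± 0.22 (SE, adjusted p = 0.0224 from limma), with no overlap on either diet.

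*Cars*, which encodes the cysteinyl-tRNA synthetase, was detected in all RD controls (5.34, 5.60 and 5.71) and on no RD metformin array (4.65, 4.59 and 4.72). Taking the dimmer group at the lowest signal still well detected, the RD controls were at least 1.69-fold higher. On HFD the controls (5.36 to 6.12) and the metformin livers (5.93 to 6.60) overlapped. The interaction was 1.48 ± 0.25 (SE, adjusted p = 0.0239 from limma).

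Another 7 genes had these signs, *Prg3* with no measured HFD level. They were *Gm26588*, a predicted gene, *Terf1*, a telomere-binding protein of shelterin, *Rai1*, a transcriptional regulator, *Sox6*, a transcription factor of erythroid maturation, *Atp8a1*, a phospholipid flippase, *Rep15*, a binding partner of Rab15, and *Prg3*, an eosinophil granule protein. Their interactions ran from 0.70 (*Prg3*) to 1.25 (*Atp8a1*), and the groups of *Gm26588* and *Terf1* did not overlap on either diet. *Rep15* was 0.85 higher with metformin on HFD and -0.19 on RD, where 2 of 6 arrays detected it. *Atp8a1* differed mostly on RD, from 6.54, 6.12 and 6.27 in the controls to 5.14, 5.88 and 4.98 with metformin (-0.98), against 0.27 on HFD. *Prg3* was detected on all 6 RD arrays and on no HFD array, so its interaction of 0.70 sets RD levels of 6.39, 6.57 and 6.60 in RD controls and 5.76, 5.77 and 5.92 in RD metformin livers against HFD values at background.

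In 11 of these 12 genes the HFD metformin group had the highest mean of the 4 groups and the RD metformin group the lowest. *Prg3* was the exception. The controls of the diets lay between the metformin groups for the others. The genes were chosen from these same group means, which favours this order, so the order is only a description.

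**Figure D2:**
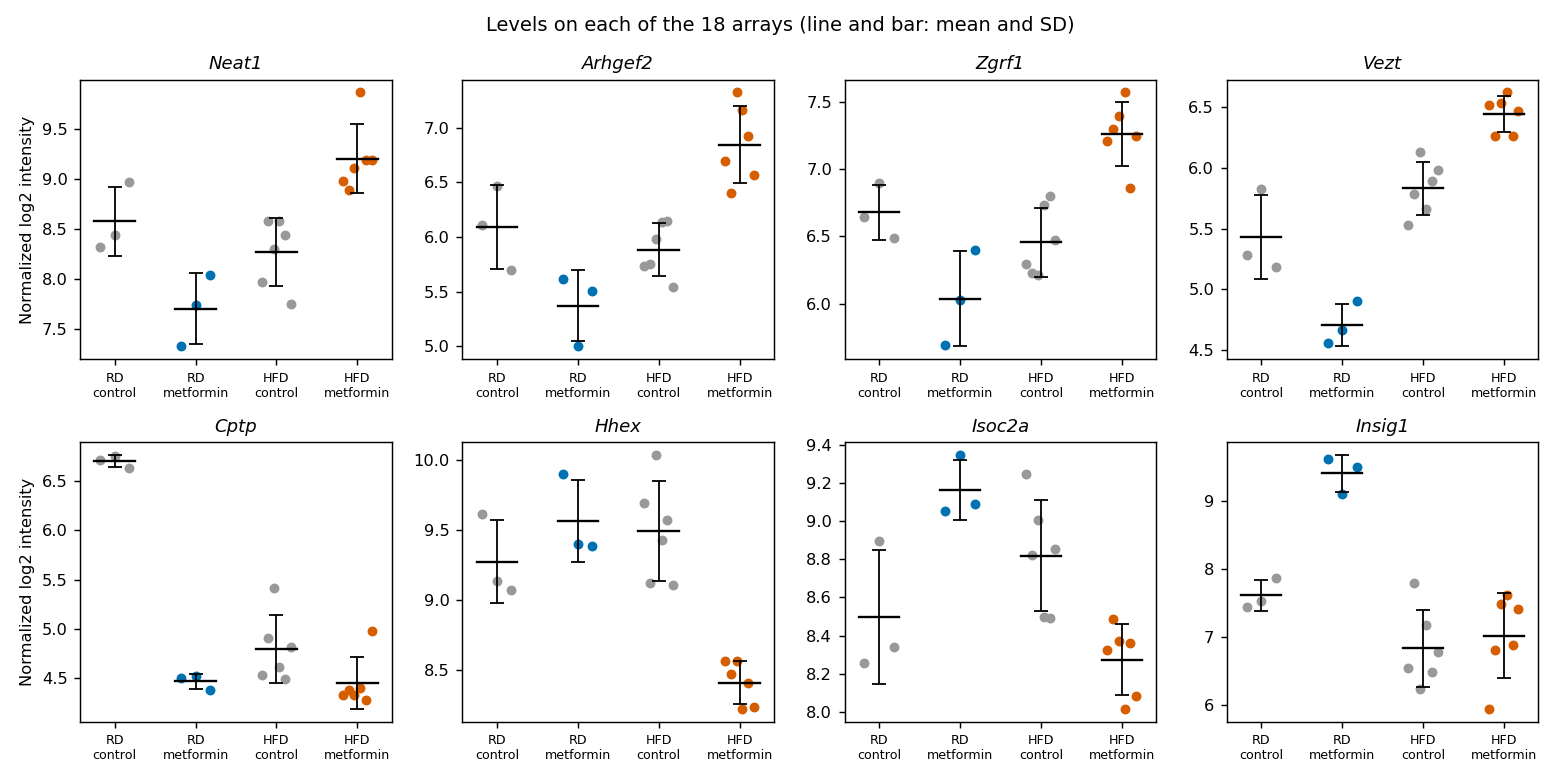
Normalized log2 intensity (y axis) of 8 genes on the 18 arrays, by diet and treatment (x axis), each point 1 liver, with the mean and SD of each group. The y axes do not start at 0. For *Neat1*, *Arhgef2*, *Zgrf1* and *Vezt* the metformin points lie below the controls on RD and above them on HFD, and for *Isoc2a* the reverse holds.

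*Isoc2a* was the called gene with the most even response in the other direction. It encodes an isochorismatase-domain protein. RD controls were at 8.26, 8.90 and 8.34 and RD metformin livers at 9.05, 9.35 and 9.09. HFD controls lay between 8.49 and 9.25 and HFD metformin livers between 8.02 and 8.49, so neither pair of groups overlapped, although the HFD groups met at 8.49. The effects were -0.55 on HFD and 0.67 on RD (interaction -1.21 ± 0.25 SE, adjusted p = 0.0439 from limma).

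*Hhex*, a homeobox transcription factor required for liver development, had a called interaction of -1.38 ± 0.27 (SE, adjusted p = 0.0395 from limma) that came mostly from HFD. Its level was 9.11 to 10.04 in HFD controls and 8.22 to 8.56 in HFD metformin livers, a difference of -1.09. In RD controls it was 9.61, 9.14 and 9.07 and in RD metformin livers 9.90, 9.40 and 9.39. These groups overlapped, and the RD effect of 0.29 had an unadjusted p of 0.202.

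For *B3galt6* and *Sst* the interaction came from RD. *B3galt6*, a galactosyltransferase that builds the linker of proteoglycan chains, was 6.19, 6.48 and 6.13 in RD controls and 7.10, 7.11 and 7.03 in RD metformin livers (RD effect 0.81, called). All 12 HFD livers lay between 6.58 and 6.97, with an effect of -0.03. *Sst*, for somatostatin, was detected in 3 of 3 RD metformin livers (5.35, 5.71 and 6.05), in 1 of 3 RD controls and on no HFD array.

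*Cptp*, whose product carries ceramide-1-phosphate between membranes, was kept for the test through the RD controls, the group where it is high. It was at 6.71, 6.76 and 6.63 in RD controls and not detected in RD metformin livers (4.50, 4.52 and 4.38), at least 3.76-fold lower. HFD controls (4.49 to 5.42, 1 of 6 detected) and HFD metformin livers (4.27 to 4.98, none detected) were nearly all at background, so the fitted interaction (1.89 ± 0.26 SE, adjusted p = 0.00431 from limma) rests on the RD controls and is no measured difference between the effects. *Rbm45*, an RNA-binding protein, fell on RD, from 7.03, 6.88 and 6.73 to 4.90, 5.63 and 5.89, with an HFD effect of -0.03.

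Genes just outside the threshold include several with opposite effects of like size. The rule for naming genes filled its places with them, and none was called. Of those lower on HFD and higher on RD, *Chpt1*, which makes phosphatidylcholine, had effects of -0.67 and 0.49 (adjusted p = 0.0528 from limma), with no overlap on either diet. *Kyat3*, a kynurenine aminotransferase, had effects of -0.76 and 0.52 (adjusted p = 0.0586). *Gchfr*, the feedback regulator of GTP cyclohydrolase, had an interaction of -1.07 and *Fh1*, the fumarase of the TCA cycle, of -0.76. Of those higher on HFD and lower on RD, *Abcb10*, a mitochondrial transporter of erythroid cells, had effects of 0.79 and -0.86, and *Chka*, a choline kinase, of 0.72 and -1.08 (adjusted p of the interaction 0.0681 and 0.0834 from limma). Dimmer probes gave interactions of -1.01 and -0.86 for *Chpt1*, -0.50 and 0.05 for *Kyat3*, -1.09 for *Gchfr* and -0.26 for *Fh1*. For *Abcb10* a dimmer probe gave -0.33 on HFD and -0.22 on RD, and for *Chka* 0.08 and -0.26. *Chka* and *Chpt1* act at the first and last steps of the same route to phosphatidylcholine, and their effects had opposite signs on each diet.

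For 10 further genes only a dimmer probe was called while the brightest was not. They were *Mug2*, *Slc13a3*, *Top2a*, *Ppp6r3*, *Ilf2*, *Kyat1*, *Luc7l2*, *Insig1*, *Dicer1* and *Lmo4*. By these probes 9 of the 10 had an interaction above 0, and the brightest probe of *Luc7l2* gave 0.02 where the dimmer gave 1.75. The *Mug2* probe was detected in 3 of 3 RD controls, 1 of 6 HFD controls and 0 of 6 HFD metformin livers. Its HFD effect (-0.06) was at background, so its interaction is no measured difference between the effects. *Slc13a3* was detected in 1 of 3 RD controls and 0 of 3 RD metformin livers, and *Kyat1* in 0 of 3 RD metformin livers. *Dicer1* and *Lmo4* had brightest probes of the other sign (-0.20 and -0.02). Which transcripts the dimmer probes measure was not tested.

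The RD females were not part of the contrast, but they carry the codes of the RD males (B and C in controls, E and F with metformin). Litters may therefore be shared between the RD males and females. In a model of all 24 livers, limma called 0 of 17547 probes for metformin in RD females, with 728 probes (4.15%) at an unadjusted p under 0.05. Of the 18 genes, 17 had an RD female effect of the sign seen in RD males, where 63.2% of all genes, whatever the size of their effect, did. *Rep15* was the exception (0.05). Of the 87 genes with both effects at an unadjusted p under 0.05, 83 had the RD male sign in the females and 22 passed there too. The females' effect passed an unadjusted p under 0.05 for *Cptp*, *Zgrf1*, *B3galt6*, *Sox6*, *Atp8a1*, *Isoc2a* and *Rai1*.

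The female difference was 1.09 ± 0.26 (SE) for *B3galt6*, 0.78 ± 0.25 (SE) for *Isoc2a* and -1.01 ± 0.24 (SE) for *Atp8a1*. For *B3galt6* the female control 1C was low, at 4.93 beside 6.59 and 6.62, against 7.06, 7.25 and 7.10 with metformin, which enlarges the difference. *Cptp* differed by -1.89, but 1 of the 3 female controls (2B) was as low as the metformin livers, at 4.45 beside 7.85 and 6.53. *Neat1*, *Arhgef2*, *Vezt* and *Cars* had female effects of only -0.19, -0.21, -0.18 and -0.09, each within its SE. With RD females in place of RD males, and the same 12 HFD livers, limma called the interaction for 0 of 17547 probes (2184 at an unadjusted p under 0.05).

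**Figure D3:**
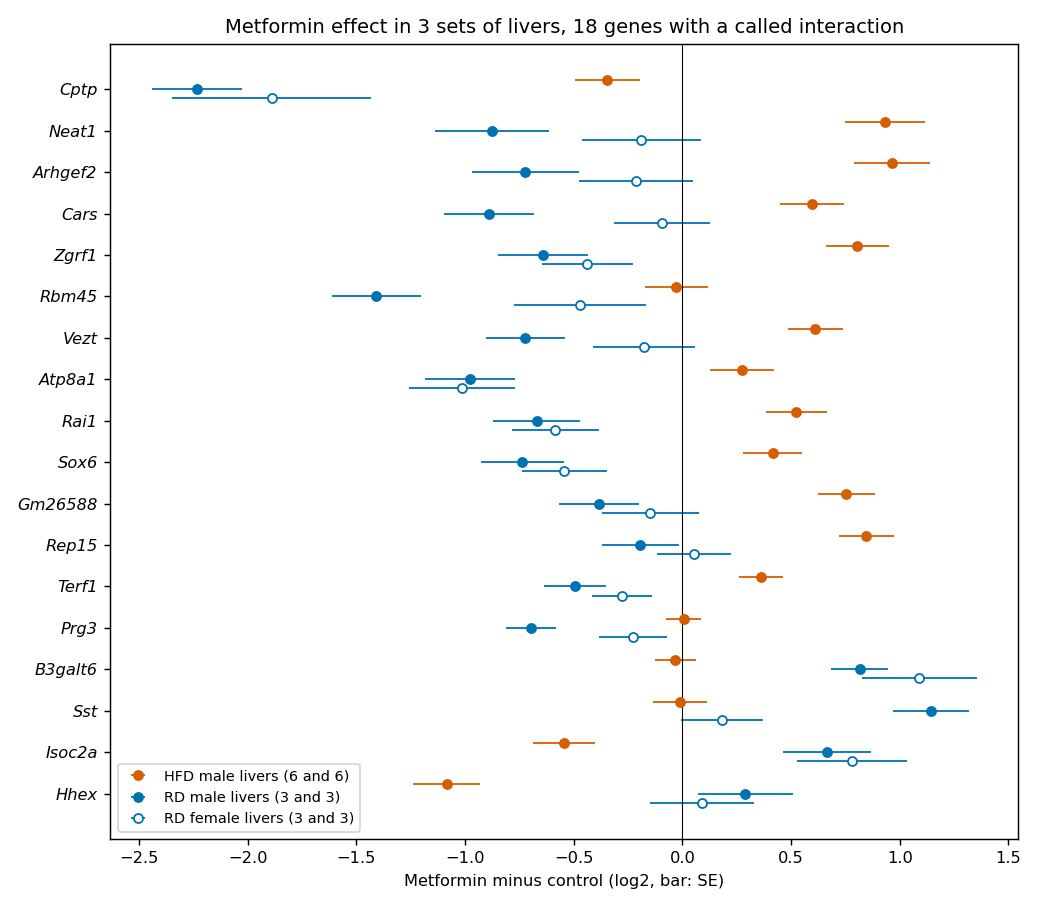
Metformin minus control (x axis, log2, bars are SE) for the 18 genes with a called interaction (y axis), in HFD male livers, RD male livers and RD female livers. The HFD and RD male values chose the genes and come from the model of 18 arrays, while the female values come from the model of 24 livers. Open circles lie on the side of the filled blue circles for all genes except *Rep15*.

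Gene lists are given by how many members passed and by their median, beside all genes. At an unadjusted p under 0.05 the interaction was above 0 for 676 genes (6.87%) and below 0 for 482 (4.9%). By its brightest probe, no member of a pathway or cell type list was called after adjustment. The median effects on HFD and RD had opposite signs in 22 of 33 lists. Centring each array on its median moved the median effect of all genes by -0.23 on HFD and -0.20 on RD. With it the complex I median on RD was -0.07 and the erythroid median on HFD -0.02, which turns their signs, but relative to all genes they were 0.13 and 0.21, so list effects are read relative to all genes.

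Cholesterol synthesis had the largest RD median of the lists. Its genes are induced by the transcription factor SREBP2 when sterols run low, and INSIG1 holds SREBP in the endoplasmic reticulum when sterols are plentiful. All 17 measured members were above 0 on RD (median 0.62, 7 at an unadjusted p under 0.05), while 10 were above 0 and 7 below on HFD (median 0.12). The interaction was below 0 in 16 of 17 (median -0.55), with 7 at an unadjusted p under 0.05. With erythroid and granulocyte marker levels as a covariate the median turned to 0.05. In RD females all 17 were above 0, with a median of 0.32. The mean level of the list was 7.85 to 8.19 in RD controls and 8.42 to 8.90 in RD metformin livers, and the HFD groups overlapped (6.70 to 8.04 and 7.47 to 7.79). The HFD control 1T-1 was the lowest at 6.70, and without 1T-1 the median interaction was -0.76. Without the RD metformin pup 1E it was -0.32.

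*Insig1* had the largest RD effect of the list. By its brightest probe it was 7.44, 7.53 and 7.87 in RD controls and 9.61, 9.10 and 9.49 in RD metformin livers, with 6.24 to 7.80 in HFD controls and 5.95 to 7.61 in HFD metformin livers. The RD effect was 1.79 and the HFD effect 0.19, with an interaction of -1.60 ± 0.46 (SE, adjusted p = 0.174 from limma). A dimmer probe was called, with an interaction of -2.59 ± 0.48 (SE, adjusted p = 0.0278), an RD effect of 1.88 and an HFD effect of -0.71. It was detected in 5 of 6 HFD controls and 3 of 6 HFD metformin livers. In RD females *Insig1* was 2.07 higher by the brightest probe (unadjusted p = 4.46e-05 from limma) and 1.08 higher by the dimmer.

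*Pmvk*, the phosphomevalonate kinase, went from 6.35, 6.30 and 6.23 in RD controls to 7.74, 6.83 and 6.91 in RD metformin livers (0.87), with -0.22 on HFD and an interaction of -1.09 (adjusted p = 0.103). *Hsd17b7*, which also reduces a sterol intermediate, had effects of 0.62 on RD and -0.21 on HFD, and *Ebp*, a sterol isomerase, of 0.35 and -0.33. *Mvd* had an RD effect of 1.11 and *Lss* of 0.74, each with an HFD effect within 0.05 of 0. *Srebf2* itself, the gene of SREBP2, had 0.22 on RD and 0.13 on HFD.

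Promoter sequence is shown for *Insig1* and *Hsd17b7*, whose start regions share a stretch that was noticed when the sequences were read. Both come from RefSeq (GRCm38.p6), run 5′ to 3′ on the gene's strand, and have the E-box CACGTG in capitals. The *Insig1* window is chr5:28071284-28071343 on the plus strand and the *Hsd17b7* window chr1:169969316-169969375 on the minus strand.
Insig1: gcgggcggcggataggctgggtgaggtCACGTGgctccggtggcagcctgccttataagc
Hsd17b7: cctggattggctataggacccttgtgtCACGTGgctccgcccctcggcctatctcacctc
The run GTCACGTGGCTCCG, 14 bases long, was in both and in 5 of 32851 promoters in all. CACGTG, searched on both strands from 250 bases before to 50 after the start, was in 4 of the 14 list genes with a promoter sequence (*Dhcr7*, *Hsd17b7*, *Insig1* and *Sc5d*) and in 7.15% of all promoters. The sterol regulatory element, searched as TCACNCCAC on both strands, was in none of the 14 and in 1.24% of all promoters. A match is a description of these letters and not a binding site.

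Blood cell lists had medians of the other sign. Erythroid markers, genes of red cell precursors, had 17 of 18 interactions above 0 (median 0.75), and 11 passed an unadjusted p under 0.05. The median effect was 0.36 on HFD and -0.33 on RD. In RD females it was -0.57, with 13 of 18 lower at an unadjusted p under 0.05. Mean levels of the list overlapped on each diet, at 9.63 to 9.94 in RD controls, 9.22 to 9.79 in RD metformin livers, 9.54 to 10.33 in HFD controls and 10.18 to 10.47 in HFD metformin livers.

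*Slc14a1*, the red cell urea transporter, had effects of 0.68 on HFD and -0.57 on RD with no overlap on either diet (interaction 1.25, adjusted p = 0.0681 from limma). *Kel*, the Kell blood group protein, was 8.68, 8.63 and 8.32 in RD controls and 7.50, 7.71 and 8.35 in RD metformin livers, and 8.62 to 9.74 in HFD controls and 9.48 to 9.90 in HFD metformin livers. Its groups overlapped on each diet (interaction 1.26, adjusted p = 0.104). *Ank1*, the ankyrin of the red cell membrane, had 0.46 and -0.53. *Klf1* and *Tal1*, transcription factors of the lineage, had interactions of 0.89 and 0.87. *Hba-a1*, for alpha globin, had 0.04, *Fech*, the last enzyme of haem synthesis, -0.10 and *Tfrc*, the transferrin receptor, 0.22. Of the 25 markers listed, 18 had a kept probe.

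The *Kel* promoter held AGATAA, the GATA factor motif, shown in capitals because GATA1 drives this lineage. The window is chr6:41704349-41704408 on the minus strand (RefSeq, GRCm38.p6).
Kel: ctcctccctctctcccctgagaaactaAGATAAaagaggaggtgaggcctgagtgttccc
AGATAA, searched on both strands, was in 3 of 12 erythroid genes with a promoter sequence (*Alas2*, *Kel* and *Tal1*), in 3 of 10 megakaryocyte genes (*Clec1b*, *Gp5* and *Pf4*) and in 11.2% of all promoters. Here too the lists count genes and the share of all counts promoters. *Gata1* itself had 0.36 on HFD and 0.08 on RD.

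Megakaryocyte markers, genes of platelet precursors, had the largest median interaction of the lists, at 0.97, with 10 of 11 above 0 and 9 at an unadjusted p under 0.05. The median effect was 0.58 on HFD and -0.41 on RD. In RD females 11 of 11 were below 0 (median -0.49). The mean level of the list was 7.71 to 8.06 in RD controls and 7.30 to 7.61 in RD metformin livers, with no overlap, while the HFD groups overlapped. *Itga2b*, the platelet fibrinogen receptor subunit, was 6.94 to 7.59 in HFD controls and 7.66 to 8.44 in HFD metformin livers with no overlap, and its RD effect was -0.27. *Tubb1*, the platelet tubulin, had 0.68 and -0.64, and *Ppbp*, a platelet chemokine, 0.64 and -0.58. *Pf4*, platelet factor 4, had 0.75 and -0.45. *Clec1b* was the exception, with -0.39 on HFD and 0.22 on RD. Linear intensities summed over the list were 3877 to 5299 in RD controls, 2743 to 3750 in RD metformin livers, 2414 to 4077 in HFD controls and 3099 to 6945 in HFD metformin livers, the highest in 3R-2 and 3R-6.

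Cell cycle genes had 19 of 21 interactions above 0 (median 0.44). All 21 were above 0 on HFD (median 0.28) and 17 below 0 on RD (median -0.15). The replication factors *Cdc6* and *Mcm2* had interactions of 0.69 and 0.67, and *Mcm5* and *Mcm3* of 0.74 and 0.73. Granulocyte markers had 15 of 20 above 0 (median 0.31), with a median of 0.25 on HFD and 0.02 on RD.

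**Figure D4:**
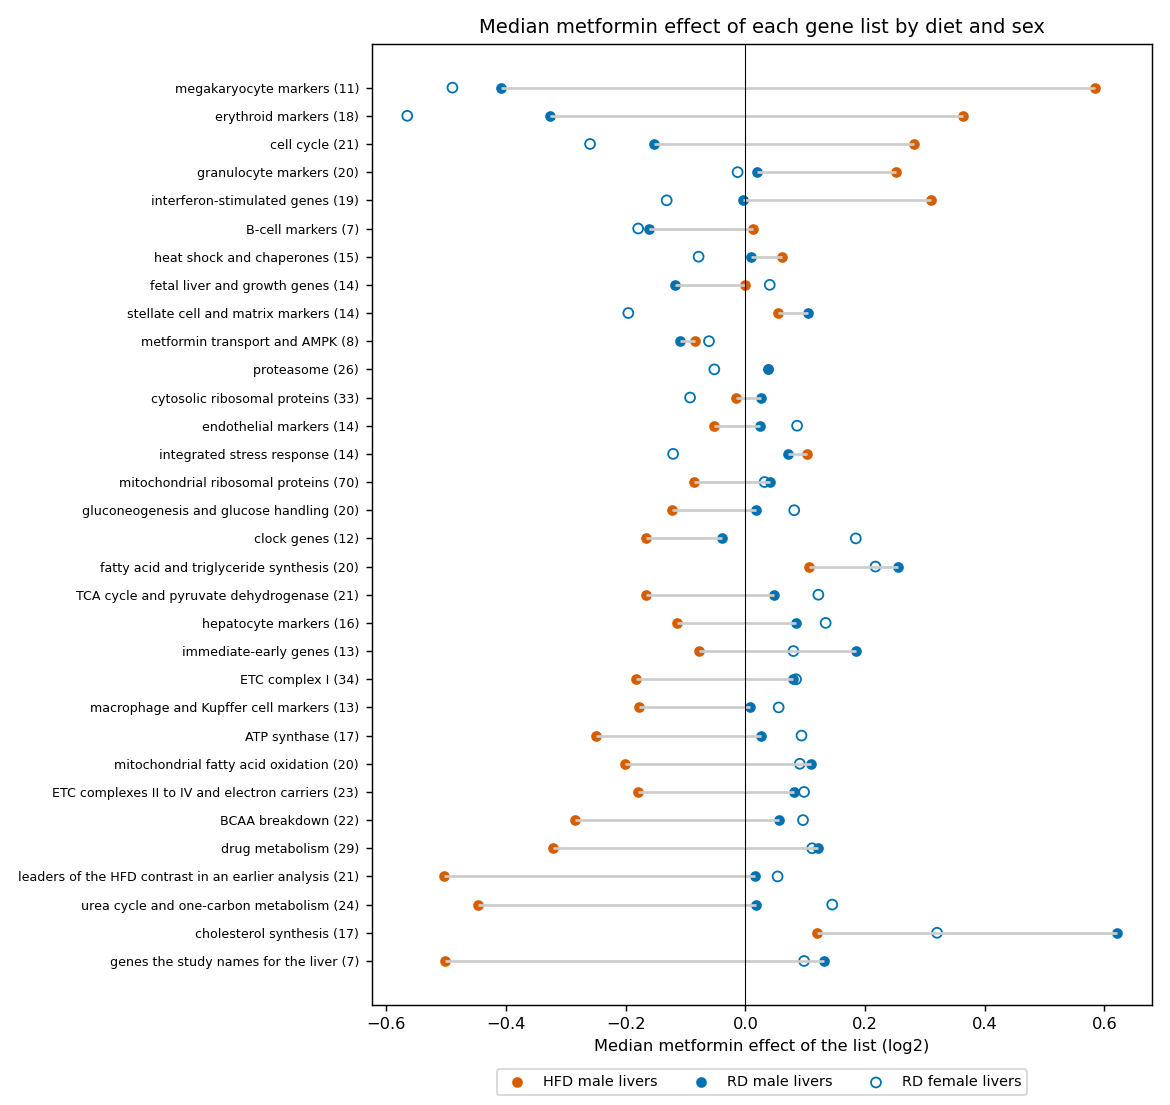
Median metformin effect (x axis, log2) of each gene list with at least 5 measured genes (y axis, number of genes in parentheses), in HFD male, RD male and RD female livers, ordered by the median interaction. Megakaryocyte and erythroid markers lie to the right on HFD (0.58 and 0.36) and to the left on RD, and cholesterol synthesis lies farthest right in RD males (0.62).

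Calls were lost when blood cell levels were added to the model. With the mean level of erythroid plus granulocyte markers as a covariate in it, limma called 0 probes (1307 at an unadjusted p under 0.05, against 2244 without it). With the megakaryocyte mean, chosen after seeing the data, it also called 0 (1578 unadjusted). With the erythroid and granulocyte covariate the interaction was larger in size for *Neat1* (1.86), *Hhex* (-1.59), *Sst* (-1.39), *Atp8a1* (1.43) and *Rep15* (1.24). It was smaller for every other called gene, among them *Cars* (0.97), *Sox6* (0.88) and *Isoc2a* (-1.19). With the megakaryocyte covariate it was larger for *Sst*, *Prg3*, *Rai1* and *Rep15* and smaller for the other called genes. *Neat1* then had 1.46 and *Hhex* -1.23. The part of blood cells in these interactions was not tested, since these levels differ between the groups themselves.

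Mitochondrial lists had medians below 0 on HFD and above 0 on RD. Complex I subunits, the site of action known for metformin, had 29 of 34 interactions below 0 (median -0.20), with 7 at an unadjusted p under 0.05. The mean level of the 34 genes was 10.62, 10.58 and 10.65 in RD controls and 10.72, 10.69 and 10.67 in RD metformin livers. On HFD it was 10.63 to 10.76 in the controls and 10.45 to 10.56 in the metformin livers. The groups did not overlap on either diet, in opposite order. Complexes II to IV with their electron carriers had the same arrangement, and of 33 lists only these 2 did. Their differences were small, with median effects of 0.08 on RD for each and of -0.18 on HFD for each.

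*Ndufa12*, a complex I subunit, had effects of -0.36 on HFD and 0.39 on RD (interaction -0.74, adjusted p = 0.0941 from limma). It was 10.72, 10.42 and 10.59 in RD controls and 11.10, 10.76 and 11.04 in RD metformin livers. *Ndufc2* and *Ndufb6* had interactions of -0.57 and -0.50. *Atp5k*, a subunit of ATP synthase, had -0.34 on HFD and 0.56 on RD. ATP synthase as a list had 14 of 17 below 0 (median -0.25) and fatty acid oxidation 14 of 20 (median -0.28). For the 7 mitochondrial genes that the study named in the liver, the brightest probe had an interaction below 0 in 7. Of these, 6 passed an unadjusted p under 0.05 and none was called. The 7 genes had been chosen on the HFD livers of this contrast. In RD males 6 were above 0, all by 0.24 or less, and in RD females 7. A dimmer probe of *Etfdh* went the other way, with an interaction of 0.94 (0.34 on HFD and -0.60 on RD). Dimmer probes of *Acaa2*, *Fh1* and *Ndufs4* all had interactions below 0, from -0.99 to -0.07.

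Lists of hepatocyte metabolism had interactions mostly below 0, with the larger part of the difference on HFD. In the urea cycle and one-carbon list 23 of 24 were below 0 (median -0.52), with a median of -0.45 on HFD and 0.02 on RD. *Asl*, the argininosuccinate lyase, had effects of -1.15 and 0.44 (interaction -1.59, adjusted p = 0.156 from limma). *Nnmt* had -1.60 and 0.10, *Gnmt* -0.79 and 0.05, and *Nags*, which makes the activator of the urea cycle, -0.68 and 0.49. The HFD control 1T-1 stood far above the other HFD controls for *Asl* (9.38, next 8.36) and *Gnmt* (13.52, next 12.53), which enlarges their HFD effects. Drug metabolism genes had 26 of 29 below 0 (median -0.46). *Cyp3a11* had -0.60 and 0.27 (interaction -0.87, adjusted p = 0.0834) and *Gstp1*, a glutathione transferase, -0.33 and 0.42. The hepatocyte markers as a list differed less (median -0.18, 13 of 16 below 0).

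**Figure D5:**
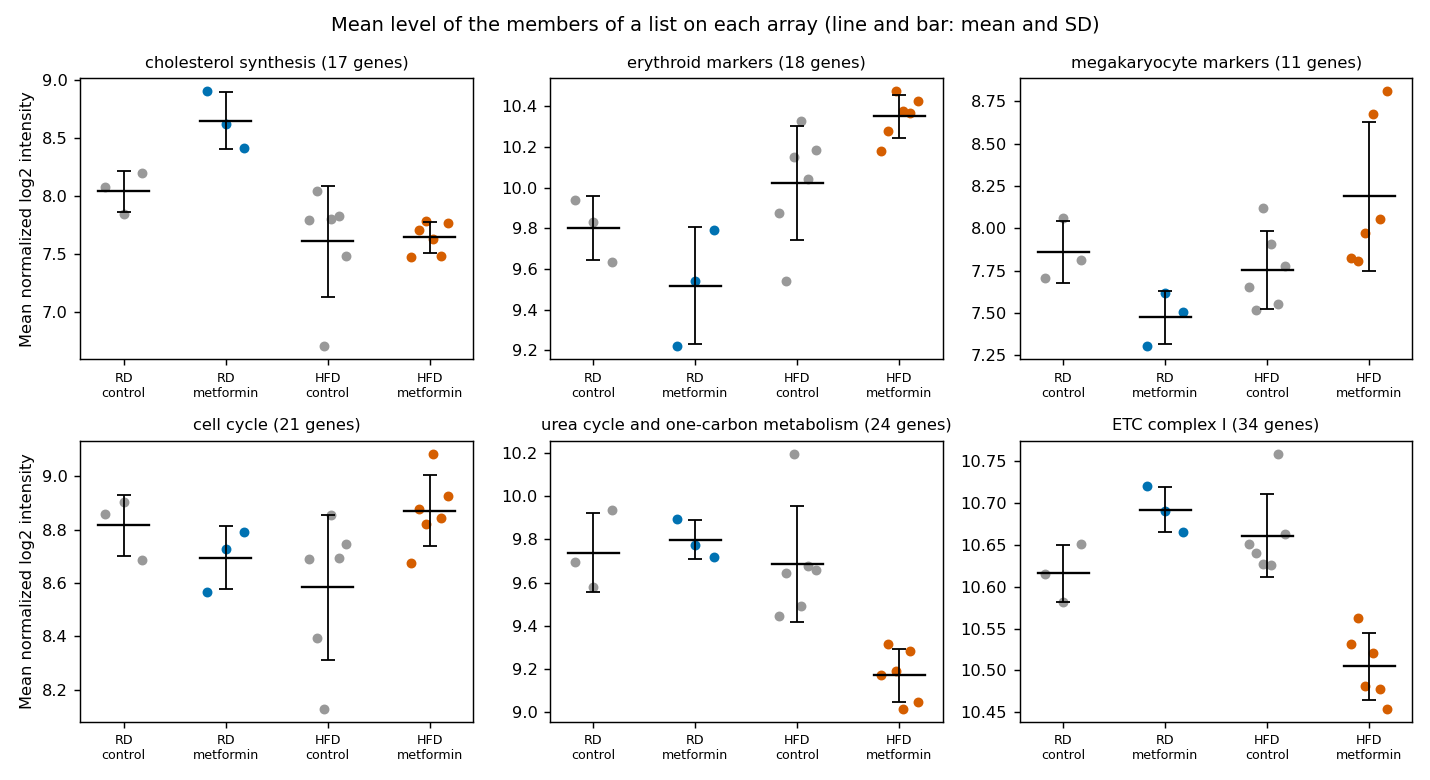
Mean normalized log2 intensity of a list's members (y axis) on each of the 18 arrays, by diet and treatment (x axis), with the mean and SD of each group. The y axes do not start at 0. For complex I the metformin points lie above the controls on RD (10.67 to 10.72 against 10.58 to 10.65) and below them on HFD, and the cholesterol synthesis list separates by treatment on RD alone.

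Several lists had a median interaction near 0. Gluconeogenesis and glucose handling had no member at an unadjusted p under 0.05 and a median of -0.12. The list of metformin transport and AMPK had a median of 0.05. Of its 8 members, 2 were above 0 at an unadjusted p under 0.05, where 6.87% of all genes were. Its mean level on RD was 7.52 to 7.63 in controls and 7.40 to 7.52 with metformin, just without overlap, and the HFD groups overlapped. The medians for cytosolic ribosomal proteins (-0.04), the proteasome (0.03) and endothelial markers (-0.05) lay beside 0.00 for all genes.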

How the data were processed

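Liver RNA was hybridised to Illumina Mouse WG-6 v2 bead arrays. The authors deposited bead intensities before normalization, each paired with a detection p-value. The authors also deposited log2 values, made in lumi (version not given) by variance stabilization followed by robust splines, which ranked the probes of each array as the intensities did. The 18 arrays were background-corrected and quantile normalized together with neqc (offset of 16) of limma 3.58.1 in R 4.3.3. Probes entered the test if detected (p under 0.05) on all arrays of any group, which left 17106 of 45281. Means of 4 groups were fitted with lmFit, contrasts.fit and eBayes, with 14 residual degrees of freedom. Of all probes, 34885 had 1 gene symbol and 18 had several. RD females came from a like model of 24 livers (17547 probes).

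The arrays came from 1 liver each and their number limits the precision. The members, the gene lists and the rule for naming genes were chosen with earlier results of these data known. The rule took, in each direction, the 10 largest interactions with opposite signs (filled by the smallest p), the 5 largest with both effects at an unadjusted p under 0.05, the 4 smallest p of each list described, and the genes the study or an earlier analysis of the HFD livers had named. The 18 called genes and the genes with a called dimmer probe were all named. Further list members in the text were chosen with their values in view. The steps were tested on simulated data. Alternatives covered the normalization, the filter, the arrays fitted, blood cell covariates and leaving out each animal. Promoters were searched in Python 3.11.15 and figures drawn with matplotlib 3.10.9.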

Additional observations from a re-analysis of the deposited data

Results flagged for a closer look

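The interaction term of limma passed for 18 genes. *Prg3* and *Sst* were detected on no HFD array and *Cptp* on 1 of 12, so for these the term sets an RD difference against background. The interactions above 0 were *Cptp* (1.89), *Neat1* (1.81), *Arhgef2* (1.69), *Cars* (1.48), *Zgrf1* (1.45), *Rbm45* (1.38), *Vezt* (1.33), *Atp8a1* (1.25), *Rai1* (1.20), *Sox6* (1.15), *Gm26588* (1.14), *Rep15* (1.04), *Terf1* (0.86) and *Prg3* (0.70). Those below 0 were *Hhex* (-1.38), *Isoc2a* (-1.21), *Sst* (-1.16) and *B3galt6* (-0.85).

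In 13 of 140 groups of 6 HFD livers (70 genes, each in controls and in metformin livers), 1 liver stood far from the other 5. Chance marks about 1 in 20 such groups. The HFD control 1T-1 was the far liver in 6 of the 13. It was the highest for *Sox6* (6.38 on the log2 scale, next 6.07), *Asl* (9.38, next 8.36), *Cyp3a25* (10.93, next 9.32), *Gnmt* (13.52, next 12.53), *Cox7a2l* (10.39, next 9.74) and *Ppbp* (10.15, next 9.54).

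Among HFD metformin livers, 3R-2 was highest for *Neat1* (9.86, next 9.19) and *Mcm5* (10.93, next 10.71). 3R-5 was highest for *Mpo* (11.98, next 11.66) and for *Sst* (4.68, next 4.42), where no HFD array detected *Sst*. 3R-6 was highest for *Cptp* (4.98, next 4.40), also undetected there. The HFD control 1R-1 was lowest for *Nktr* (6.51, next 7.44), and 1T-4 was highest for *Sst* (4.79, next 4.43).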

How the results depend on the processing

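The number of calls varied widely with the processing. All 18 genes were called with the diets normalized separately. Over the 70 genes shown, the only reversal was *Etfdh* with the mean of a gene's probes (0.11). With few RD pups, dim arrays and diet tied to study, the counts are imprecise. Median-centring shifted the median over all genes by -0.23 on HFD, -0.20 on RD and -0.04 for the interaction.

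The interaction (42 probes) was called for 26 probes with the authors' log2 values, 1 with arrays centred on their medians, 77 with the diets normalized separately, 14 among probes detected on all 18 arrays, 7 with no filter, 139 with array weights, 0 with the erythroid and granulocyte covariate, 18 (genes) with the mean of a gene's probes and 0 with RD females in place of males. It was called for 3 without code 1R, 89 without 1T and 0 without 3R, and, in alternatives added after seeing the data, for 67 without livers 1T-1 and 3R-6 and 0 with a megakaryocyte covariate. Without each pup in turn it ran from 3 to 136.

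The HFD effect (37) was called for 72 with the authors' values, 88 with no background correction, 79 with an offset of 50, 0 centred, 9 unfiltered, 145 with 24 livers and 169 with 41 arrays, 83 with a variance trend, 0 with the blood covariate, 5 with probe means, 11, 160, 229 and 0 without codes 1R, 1T, 10K and 3R, 61 without 1T-1 and 3R-6, 6 with an array brightness covariate and 3 with the megakaryocyte covariate. Without each pup it ran from 6 to 145. The RD effect (14) gave 2 centred, 37 with separate normalization, 5 among probes detected throughout, 4 with 24 livers, 7 with 41 arrays, 37 with weights, 7 with the blood covariate, 9 without 1T, 7 without 3R and 6 with the megakaryocyte covariate, and 5 to 50 without each pup.

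Called genes of opposite sign (16) numbered 0 centred, 28 with separate normalization, 7 among probes detected throughout, 3 unfiltered, 57 with weights, 9 with animal code as a random block (correlation 0.015), 0 with either covariate, 0 without 1R, 45 without 1T, 0 without 3R and 1 to 56 without each pup. Opposite genes by unadjusted p (87) numbered 3 centred, 134 unfiltered, 161 with weights, 56 with the blood covariate, 27 without 3R and 34 to 185 without each pup. RD females (0 probes by limma) gave 7 with 41 arrays and 0 to 11 without each pup. No paired analysis was possible because the labels give no number shared between the groups.

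The median interaction of 14 lists kept its sign in all 39 alternatives apart from cholesterol synthesis (0.05) and granulocyte markers (-0.03), both with the erythroid and granulocyte covariate. Median effects within a diet turned sign with median-centring for many lists, among them complex I (-0.07) and ATP synthase (-0.11) on RD and erythroid (-0.02), cell cycle (-0.07) and cholesterol synthesis genes (-0.19) on HFD.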

Other observations

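RD male and RD female effects correlated over 9844 genes with a Pearson r of 0.44 and a Spearman rho of 0.39, and HFD male and RD female effects with a Pearson r of -0.24. These are correlations across genes, which are not independent replicates. No liver is shared between the males and the females, although the males and females of a group share letters in their animal codes.
*Actb*, for cytoplasmic actin, had an interaction of 0.96, with 0.38 on HFD and -0.59 on RD, and was not called, and *Gapdh*, for a glycolytic enzyme, had 0.12.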
